A study of Homo sapiens with 6 samples.

Results

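The responses of C4-2B cells to the RORγ compounds SR2211 and XY011 were set against the response to enzalutamide (ENZ), gene by gene. Genes entered when all 6 tables listed them and when at least 1 library of every vehicle and treated pair reached a value of 5, which left 8175 of 13435 genes outside the small RNA classes. For each pair the change was log2 of (treated + 1)/(own vehicle + 1), and the SR2211 and XY011 changes were averaged into the RORγ mean change. A gene was called shared where all 3 compounds were past 1 in the same direction. It was placed in the RORγ class where the RORγ mean was past 1 and the ENZ change was under 0.5 in size, and in the ENZ class for the reverse. In all, 880 of the 8175 genes fell in a class, 4 of them because the RORγ mean and the ENZ change were past 1 in opposite directions. The classes are defined by size and carry no p-value.

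C4-2B, an established line of human prostate cancer, descends from LNCaP cells and was kept in medium with 9% charcoal-stripped and 1% whole fetal bovine serum and treated for 48 h. There were 6 libraries, 1 per group: a vehicle and a 5 µM SR2211 library, a vehicle and a 5 µM XY011 library, and a vehicle and a 20 µM ENZ library. The dose of ENZ therefore differed from that of the other compounds, and no comparison at matched doses with it could be made. The extraction text of the labels names SR2211 for the ENZ pair and the code XY018 beside SR2211 for the others, so groups were taken from the titles. Values are RPKM (reads scaled for gene length and mapped reads) in the SR2211 pair and FPKM (the same for fragments) in the others.

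RORγ is a nuclear receptor that binds DNA as a monomer and activates transcription, and it is best known in T helper cells, the liver and, in prostate cancer, as a regulator of androgen receptor expression. SR2211 is an inverse agonist of RORγ, and XY011 is a code-named antagonist of it. Enzalutamide binds the androgen receptor itself and blocks androgen binding, entry into the nucleus and DNA binding, so both kinds of compound act on the androgen pathway from different points.

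Within the SR2211 pair depth was 8.20 M mapped reads in vehicle and 8.16 M with SR2211, worked out from microRNA values, and the depth of the other libraries is unknown. At that depth a value of 5 for a 2 kb transcript stands for 82 reads. All 7 prostate luminal markers were listed in every library, with summed values of 2635 to 4165 in the vehicles and 905 to 2521 in the treated libraries. Those of basal (1 of 4 markers listed, sum 0.296 to 3.39), immune (1 of 6, 4.43 to 13.1), neuroendocrine (2 of 7, 1.67 to 11.6) and endothelial cells (1 of 3, 0.001 to 0.916) were low, while 5 of 8 fibroblast or mesenchymal markers summed to 30.1 to 74.7 in the vehicles and 46.4 to 127 with treatment. Their part in the results was not tested. In bulk RNA, fewer cells of a type and less RNA per cell cannot be told apart.

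At these doses the RORγ compounds had the wider spread of changes. The RORγ mean was 1 or more for 421 genes (5.15% of those compared) and -1 or less for 725 (8.87%), while the ENZ change was 1 or more for 131 (1.6%) and -1 or less for 194 (2.37%). The SD over genes was 0.73 for the RORγ mean and 0.47 for the ENZ change. Both classes of change leaned towards lower values, and the median gene lay at -0.10 with SR2211, -0.15 with XY011 and -0.06 with ENZ. Across the 8175 genes, which are not independent replicates, the RORγ mean and the ENZ change correlated (Pearson 0.47, Spearman 0.44), over pairs that share no library.

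The share of the response held in common depends on the compound it is counted from. Of the 194 genes at -1 or less with ENZ, 97 (50%) were also at -1 or less in the RORγ mean, and 171 (88.1%) had the same sign. Of the 725 genes lower in the RORγ mean, the same 97 are 13.4%, and 434 (59.9%) were under 0.5 in size with ENZ. Among increases, 45 genes were past 1 in both, which is 34.4% of the 131 for ENZ and 10.7% of the 421 for the RORγ mean. By class, 32 genes (0.391%) were shared and higher, 86 (1.05%) shared and lower, 226 (2.76%) in the RORγ class and higher, 434 (5.31%) in the RORγ class and lower, 51 (0.624%) in the ENZ class and higher and 47 (0.575%) in the ENZ class and lower.

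**Figure D1:**
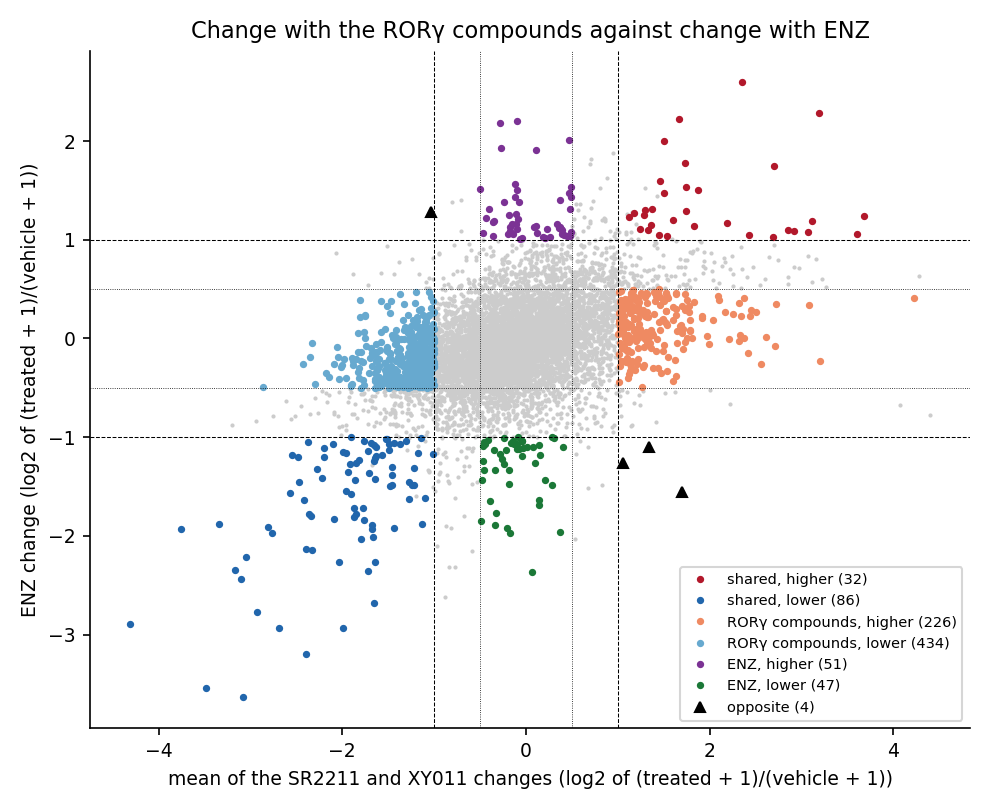
Each point is 1 of 8175 genes, with the mean of the SR2211 and XY011 changes on the x axis and the ENZ change on the y axis, both log2 of (treated + 1)/(vehicle + 1). Dashed lines mark changes of 1 and dotted lines 0.5, colours mark the classes with their numbers of genes, and the cloud is wider along x (SD 0.73) than along y (SD 0.47).

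A test of the difference across all genes called none of them. The limma package, with the SR2211 and XY011 pairs as the only source of spread (1 residual degree of freedom), gave 0 genes (0%) with a difference between the RORγ mean and the ENZ change at a Benjamini-Hochberg adjusted p under 0.05. The lowest adjusted p was 0.164, and 1430 genes had an unadjusted p under 0.05, 629 with the RORγ mean higher and 801 with it lower. Centring each pair on its median gene gave 311 called genes, 201 higher and 110 lower. The classes therefore describe sizes in single libraries, without a replicate check, and do not show that a gene responds to one kind of compound and not to the other.

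Genes activated by androgens were lower with all 3 compounds more often than not. Of 31 measured members of a list of androgen-induced targets, 19 were at -1 or less in the RORγ mean and 21 with ENZ, and 16 were among the 86 shared lower genes. The list's median was -1.65 in the RORγ mean and -1.48 with ENZ, against -0.12 and -0.06 over all 8175 genes. By median, this is the list where the 2 kinds of compound came closest among those with a large change, as the plot of list medians shows. Gene by gene they differed more. The RORγ mean was above the ENZ change in 15 members and below it in 16, by -1.41 for C1orf116 to 1.74 for TSC22D3. Counts of this and later lists stand beside 8.87% of all 8175 genes at -1 or less in the RORγ mean and 2.37% with ENZ. At 1 or more the shares were 5.15% and 1.6%.

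The prostein gene SLC45A3 had vehicle and treated values of 67.6 and 7.86 RPKM in the SR2211 pair, 57.3 and 2.60 FPKM in the XY011 pair, and 94.4 and 7.22 FPKM in the ENZ pair, changes of -2.95, -4.02 and -3.54. KLK2, a kallikrein protease gene next to that of prostate-specific antigen, stood at 211 and 28.2, at 216 and 32.8, and at 868 and 220 in the same order. FKBP5, which encodes a steroid receptor co-chaperone, stood at 72.0 and 11.9, at 187 and 13.5, and at 134 and 23.9. For these genes every treated library was below its own vehicle by a log2 value of more than 1, and the treated KLK2 value of the ENZ pair was level with the vehicles of the other pairs.

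PGC, which encodes pepsinogen C, was at 16.2 and 1.14 RPKM in the SR2211 pair, at 18.0 and 1.14 FPKM in the XY011 pair, and at 21.3 and 0.796 FPKM in the ENZ pair. TRPM8, a cold-sensing channel gene, went from 25.7 to 3.77, from 17.7 to 2.80 and from 97.1 to 9.69. In both the ENZ change was the largest of the 3 (-3.63 for PGC and -3.20 for TRPM8). C1orf116 was at 79.9 and 6.90, at 74.7 and 0.980, and at 65.1 and 7.89, where the XY011 change (-5.26) was the largest. Over the 86 shared lower genes ENZ had the larger change than the RORγ mean in 25, and XY011 had a larger one than SR2211 in 71 (82.6%), against 65.8% of all genes compared.

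The other shared decreases of high rank were in genes of varied function. PMEPA1, an androgen-induced target of the same list that encodes an inhibitor of TGF-β signalling, had changes of -2.50 with SR2211, -3.35 with XY011 and -2.77 with ENZ. AGR2, a protein disulfide isomerase gene of secretory cells, had changes of -2.39, -3.95 and -2.34, and its ENZ vehicle (314 FPKM) was far above the other vehicles (63.7 RPKM and 35.2 FPKM). ST6GALNAC1, a sialyltransferase gene, had changes of -2.88, -3.22 and -2.21, and ELOVL2, a fatty acid elongase gene, -2.10, -2.55 and -2.14. CHRNA2, a nicotinic receptor subunit gene, was at 6.99 and 0.510, at 6.92 and 0.001 (the stand-in for no reads), and at 9.97 and 0.433. Of 17 measured fatty acid synthesis genes, 4 were shared and lower, against 1.05% of all 8175 genes. Another 2 were in the RORγ class and higher, and the list's median was -0.21 in the RORγ mean and -0.34 with ENZ. Among the 4 was ACSL3, which activates long fatty acids and is also on the androgen-induced list, with -1.76 and -1.84.

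The androgen list also held genes that separated the compounds. KLK3, which encodes prostate-specific antigen, was at 1357 and 212 RPKM with SR2211, at 1315 and 461 FPKM with XY011, and at 2484 and 1487 FPKM with ENZ, so that the RORγ mean was -2.09 and the ENZ change -0.74. KLK4, a kallikrein of the same cluster, had -0.9995 in the RORγ mean and 0.22 with ENZ. TMPRSS2, a membrane protease gene, went the other way, at 134 and 66.7, 125 and 156, and 473 and 127, with -0.34 in the RORγ mean and -1.89 with ENZ. For TMPRSS2 the 2 RORγ compounds had changes of opposite sign. TSC22D3, which responds to glucocorticoids as well as androgens, was at 44.3 and 141, at 35.8 and 358, and at 181 and 300, higher in each treated library. In the RORγ mean it was at 2.47 and with ENZ at 0.73.

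**Figure D2:**
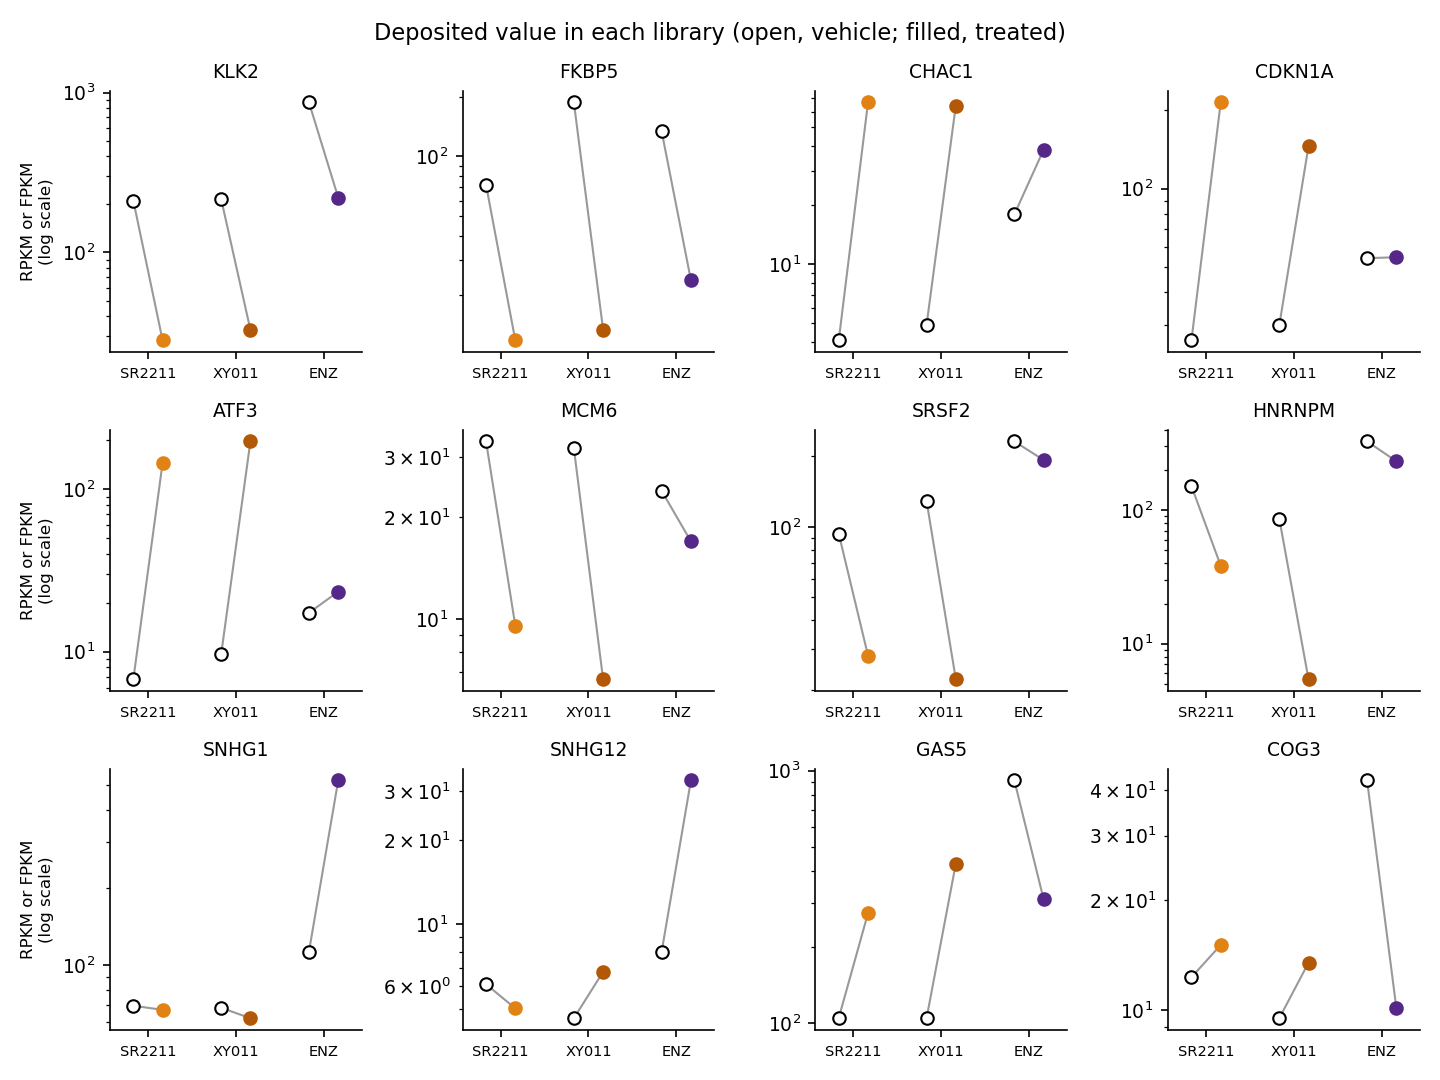
The deposited value (RPKM in the SR2211 pair, FPKM in the XY011 and ENZ pairs, log axis) of 12 genes in each of the 6 libraries, 1 library per point, with open points for vehicles and filled points for treated libraries. KLK2 and FKBP5 were lower in every treated library, CDKN1A and ATF3 were higher by more than 2 on the log2 scale in the RORγ compound pairs with ENZ changes of 0.01 and 0.41, SNHG1 was higher in the ENZ pair, and GAS5 was higher in the RORγ compound pairs and lower in the ENZ pair.

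Promoter sequences were searched for motifs in RefSeq's GRCh38.p14 windows of 250 bases before to 50 after the first listed start, found for 6820 of the 8175 genes. A match is a description of letters and not a site. More motifs were searched than are reported here. The palindrome of the androgen or glucocorticoid response element (ACANNNTGT, N for any base) was in 150 of the 6820 (2.2%). It was in 1 of 73 shared lower genes with a promoter (1.37%) and 1 of 22 shared higher genes (4.55%). For the RORγ class it was in 6 of 358 lower genes (1.68%) and 2 of 188 higher genes (1.06%). For the ENZ class it was in 2 of 39 lower genes (5.13%) and 0 of 42 higher genes. The core of the monomer site that ROR receptors bind (TAGGTCA or TGGGTCA, either strand) was in 5 of 73 shared lower genes with a promoter (6.85%), 5 of 358 RORγ-class lower genes (1.4%), 8 of 188 RORγ-class higher genes (4.26%) and 269 of the 6820 (3.94%). In the other classes it was in 2 of 39 ENZ-class lower genes (5.13%), 1 of 22 shared higher genes (4.55%) and 1 of 42 ENZ-class higher genes (2.38%). Over all 35116 promoters listed it was in 5.69%. The windows of FKBP5 and PMEPA1 hold it 99 and 130 bases before the start, in capitals in these 120-base stretches.
FKBP5 (chr6:35728619-35728738, reverse strand): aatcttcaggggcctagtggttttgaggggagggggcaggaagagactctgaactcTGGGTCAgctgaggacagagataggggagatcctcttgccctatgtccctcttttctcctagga
PMEPA1 (chr20:57711539-57711658, reverse strand): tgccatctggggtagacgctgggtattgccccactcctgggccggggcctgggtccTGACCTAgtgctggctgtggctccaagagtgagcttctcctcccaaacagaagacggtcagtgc

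Shared increases were fewer. CAMK2N1, whose product blocks the calmodulin-dependent kinase CaMKII, was at 10.9 and 53.5 RPKM in the SR2211 pair, at 6.76 and 43 FPKM in the XY011 pair, and at 19.2 and 122 FPKM in the ENZ pair. PCK2, the mitochondrial enzyme that makes phosphoenolpyruvate, was at 26.4 and 186, at 19.5 and 126, and at 112 and 381. BMP7, a growth factor gene of the TGF-β family, was at 3.79 and 16.0, at 3.25 and 12.2, and at 4.11 and 16.5. In all 3 genes every treated library was above its own vehicle, with near equal changes for BMP7 (1.83, 1.64 and 1.78), whereas for PCK2 the ENZ vehicle was itself close to the XY011-treated library.

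IFI27L2, a small mitochondrial protein gene, was at the stand-ins for no reads in the SR2211 and XY011 vehicles (0.01 RPKM and 0.001 FPKM) and at 8.10 and 8.32 when treated, while in the ENZ pair it was at 1.09 and 9.18. KDM6B, a histone H3 lysine demethylase gene, had changes of 1.45, 2.03 and 1.54, and SDC4, which encodes the heparan sulfate proteoglycan syndecan-4, 1.47, 2.26 and 1.5. COLEC12, a scavenger receptor gene (1.70, 1.64 and 2.22), and RNF19A, a ubiquitin ligase gene (1.5, 1.5 and 2.0), were higher by more with ENZ. The annexin gene ANXA9 (1.44, 1.56 and 1.47) and the phosphatase gene PPM1M (1.68, 1.80 and 1.29) completed the 10 largest by the smallest of the 3 changes.

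Another group of shared increases was larger with the RORγ compounds. DDIT4, whose product inhibits mTORC1, was at 51.7 and 579.6 RPKM with SR2211, at 34.1 and 522 FPKM with XY011, and at 310.5 and 737 FPKM with ENZ. FTH1, the ferritin heavy chain that stores iron, was at 985 and 7879, at 1150.4 and 10732, and at 1731 and 3940.5, and ASNS, asparagine synthetase, was at 48.1 and 340, at 66.0 and 507, and at 147 and 316. For each of these the RORγ mean (3.68, 3.11 and 2.86) was well above the ENZ change on the log2 scale (1.24, 1.19 and 1.1). Over the 32 shared higher genes ENZ had the larger change than the RORγ mean in 8.

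The integrated stress response showed this difference in size as a group. These are genes that ATF4 and its partners induce when protein synthesis stalls or amino acids run short. Of 28 measured members 22 were at 1 or more in the RORγ mean and 0 at -1 or less, with a median of 2.02. With ENZ 4 were at 1 or more and 0 at -1 or less, the median was 0.59, and 26 of 28 had a positive change. Thus 4 members were shared, 5 were in the RORγ class, and 12 were past 1 in the RORγ mean with ENZ changes between 0.5 and 1. Over all 8175 genes 5.15% were at 1 or more in the RORγ mean and 1.6% with ENZ. Starting levels differed between members. For several, NUPR1 among them, the ENZ vehicle (274 FPKM) was far above the others (58.0 RPKM and 77.8 FPKM). For ATF4 the ENZ vehicle (307 FPKM) lay between them (216 RPKM and 320 FPKM). The part of these levels in the difference was not tested.

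ATF3, a stress-induced transcription factor gene, was at 6.76 and 145 RPKM with SR2211, at 9.62 and 197 FPKM with XY011, and at 17.3 and 23.4 FPKM with ENZ, changes of 4.24, 4.22 and 0.41. DDIT3, which encodes the transcription factor CHOP, was at 20.2 and 302, at 22.5 and 619, and at 28.4 and 44.5. GDF15, a stress cytokine gene, was at 175 and 2315, at 57.3 and 1969, and at 1064 and 620. In GDF15 the ENZ vehicle was above both other vehicles and the ENZ-treated library below its own vehicle (-0.78), whereas the RORγ mean was 4.4. ATF5 and PSPH were members with little or opposite change in the RORγ mean (-0.39 and 0.02, against 0.42 and 0.32 with ENZ).

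The composite site of ATF4 and C/EBP factors (TGATGCAA, either strand) is rare in promoters. It was in 6 of 188 RORγ-class higher genes with a promoter (3.19%) and 1 of 22 shared higher genes (4.55%), against 34 of the 6820 (0.499%), and in 0 of the shared lower, RORγ-class lower and ENZ-class genes. Over all 35116 promoters listed it was in 0.866%. The counts are small and no enrichment was tested. The matches are in capitals, the lower strand reading TTGCATCA, in the 120-base stretches of CHAC1 (a glutathione-degrading enzyme), BCAT1 (branched-chain amino acid transamination), MTHFD1L (mitochondrial one-carbon metabolism), GOT1 (aspartate synthesis), CARS (cysteinyl-tRNA synthetase) and HERPUD1 (endoplasmic reticulum protein degradation). The other RORγ-class match, in VGLL4, a cofactor gene of TEAD transcription factors, stands 192 bases before the start and is not printed.
CHAC1 (chr15:40953221-40953340, forward strand): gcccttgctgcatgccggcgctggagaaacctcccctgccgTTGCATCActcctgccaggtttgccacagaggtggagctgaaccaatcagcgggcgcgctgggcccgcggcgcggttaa
BCAT1 (chr12:24949102-24949221, reverse strand): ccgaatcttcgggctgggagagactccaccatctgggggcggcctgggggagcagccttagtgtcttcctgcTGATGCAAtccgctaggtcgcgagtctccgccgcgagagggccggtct
MTHFD1L (chr6:150866301-150866420, forward strand): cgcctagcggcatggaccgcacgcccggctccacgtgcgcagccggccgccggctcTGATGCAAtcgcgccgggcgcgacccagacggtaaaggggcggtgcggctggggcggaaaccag
GOT1 (chr10:99430755-99430874, reverse strand): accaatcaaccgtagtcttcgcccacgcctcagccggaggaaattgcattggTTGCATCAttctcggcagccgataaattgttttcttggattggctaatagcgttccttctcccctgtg
CARS (chr11:3057418-3057537, reverse strand): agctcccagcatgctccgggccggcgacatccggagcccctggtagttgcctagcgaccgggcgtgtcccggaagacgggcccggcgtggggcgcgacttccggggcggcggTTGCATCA
HERPUD1 (chr16:56931910-56932029, forward strand): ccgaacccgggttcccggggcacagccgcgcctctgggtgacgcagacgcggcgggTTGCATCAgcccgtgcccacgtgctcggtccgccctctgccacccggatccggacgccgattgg

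CHAC1 was at 4.10 and 66.8 RPKM with SR2211, at 4.90 and 64.4 FPKM with XY011, and at 17.9 and 38.4 FPKM with ENZ, and is the shared gene with a match. CARS was at 20.9 and 69.0, at 24.9 and 65.9, and at 51.4 and 62.7, GOT1 at 58.2 and 142, at 66.8 and 151, and at 84.5 and 105. The ENZ-treated libraries were above their vehicle there by a log2 value of 0.28 and 0.31. BCAT1 had 1.36 in the RORγ mean and 0.09 with ENZ, MTHFD1L 1.06 and 0.07, HERPUD1 1.12 and -0.03, and VGLL4 1.53 and 0.46. Of 20 aminoacyl-tRNA synthetase genes, 6 were at 1 or more and 1 at -1 or less in the RORγ mean, and 0 were past 1 in either direction with ENZ. Among all 8175 genes the RORγ mean shares were 5.15% and 8.87%. In that list GARS, for glycine (1.77 and 0.27), and SARS, for serine (2.02 and 0.68), were higher, while FARSA, for phenylalanine, was lower (-1.14 and -0.42).

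**Figure D3:**
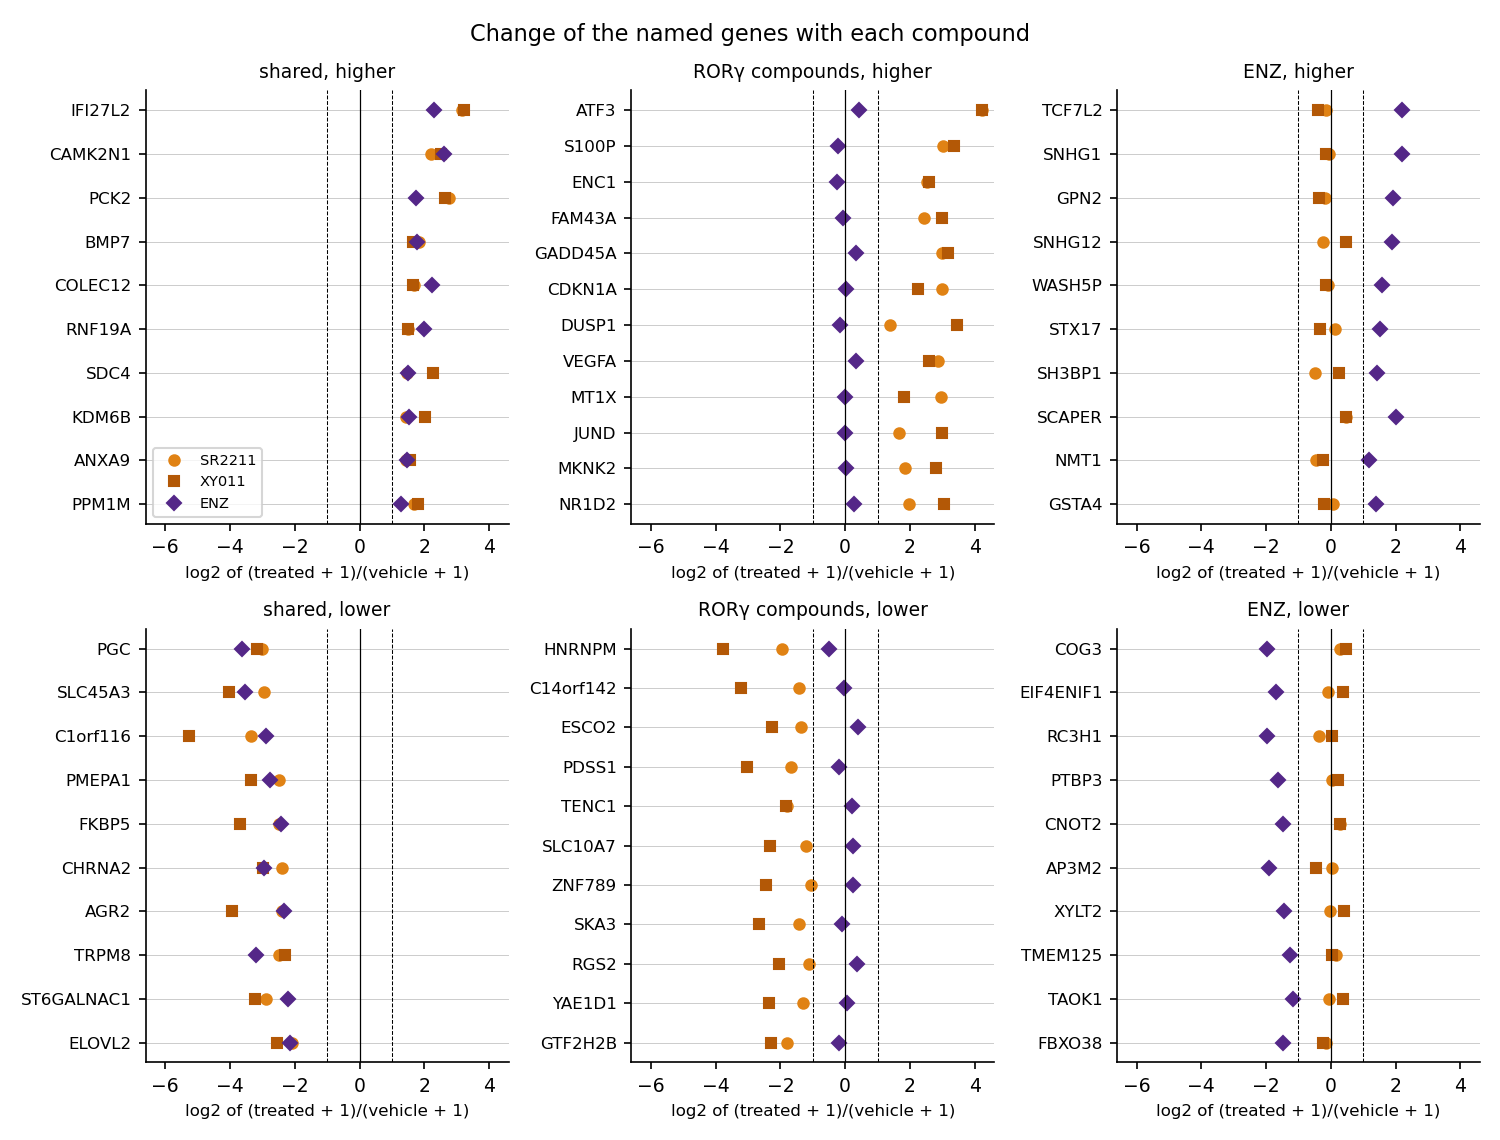
The change with SR2211, XY011 and ENZ (log2 of (treated + 1)/(vehicle + 1), 1 pair of libraries per point) of genes of highest rank in each of the 6 classes, with dashed lines at changes of 1. In the RORγ class the XY011 squares lie further from 0 than the SR2211 circles for every lower gene shown, and ENZ diamonds lie within 0.5 of 0 by the rule that chose them.

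Of 21 measured p53 targets, 4 were in the RORγ class and higher (2.76% of all 8175 genes were), among them CDKN1A, GADD45A and BBC3. CDKN1A, which encodes the cyclin-dependent kinase inhibitor p21, was at 26.2 and 214 RPKM with SR2211, at 29.9 and 146 FPKM with XY011, and at 54.1 and 54.6 FPKM with ENZ. GADD45A, a growth arrest and DNA damage response gene, was at 3.40 and 33.7, at 3.96 and 44.2, and at 14.5 and 18.6. BBC3, which encodes the apoptosis activator PUMA, was at 1.05 and 6.21, at 0.440 and 5.95, and at 5.10 and 5.95. The ENZ libraries of CDKN1A differed by a log2 value of 0.01, and for BBC3 both ENZ libraries were at the level of the libraries treated with RORγ compounds. Over the whole p53 list 8 were at 1 or more in the RORγ mean (median 0.95) and 0 with ENZ (median 0.01). Among other genes of cyclin-dependent kinase inhibitors, CDKN1B (p27) was higher, with 1.31 and -0.06, and CDKN2C (p18) was in the RORγ class and lower, with -1.17 and -0.22. The p53 target BAX, a pore-forming apoptosis gene, had -0.58 and -0.11.

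Of 13 measured immediate early genes 5, and of 11 glucocorticoid-responsive genes 3, were in the RORγ class and higher. Over all 8175 genes the share was 2.76%. The lists overlap, and DUSP1 is counted in both. DUSP1, a phosphatase gene that dampens MAP kinases, was at 9.33 and 25.9 RPKM with SR2211, at 4.10 and 54.9 FPKM with XY011, and at 8.71 and 7.77 FPKM with ENZ. JUND, a subunit gene of the AP-1 factor, was at 56.4 and 179.7, at 37.05 and 299.5, and at 135 and 133. Both were higher in the RORγ compound libraries, by more with XY011, and the ENZ changes were -0.15 and -0.02. Over the immediate early list 6 were at 1 or more and 1 at -1 or less in the RORγ mean (median 0.75), and 0 and 1 with ENZ (median -0.02). Over the glucocorticoid-responsive list the counts were 6 and 1 (median 1.1) against 0 and 2 (median -0.15), and MT2A, a metallothionein gene, had 2.86 and 0.62. The cyclic AMP response element (TGACGTCA, its own reverse complement) was in 11 of 188 RORγ-class higher genes with a promoter (5.85%), against 3.64% of the 6820 and 1.85% of all promoters. The share was 5.13% in the ENZ-class lower genes (2 of 39), 4.76% in the ENZ-class higher genes (2 of 42), 4.11% in the shared lower genes (3 of 73) and 2.51% in the RORγ-class lower genes (9 of 358). The element was in 0 of 22 shared higher genes. It stands 125 and 200 bases before the starts of DUSP1 and JUND, in capitals here.
DUSP1 (chr5:172771257-172771376, reverse strand): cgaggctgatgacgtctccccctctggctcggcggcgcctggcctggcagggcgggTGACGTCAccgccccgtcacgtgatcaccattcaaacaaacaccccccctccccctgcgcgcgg
JUND (chr19:18281753-18281872, reverse strand): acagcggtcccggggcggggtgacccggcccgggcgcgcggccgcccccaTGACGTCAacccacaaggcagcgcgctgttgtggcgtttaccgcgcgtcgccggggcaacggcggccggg

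NR1D2, a clock repressor gene whose product binds sites like those of ROR receptors, was at 9.58 and 40.5 RPKM with SR2211, at 5.83 and 55.3 FPKM with XY011, and at 9.97 and 12.2 FPKM with ENZ. Its close relative NR1D1 was at 3.14 and 13.5, at 3.95 and 54.5, and at 3.61 and 7.19, with 2.65 in the RORγ mean and 0.83 with ENZ. All 3 vehicles lay close together for NR1D1. BHLHE40, another clock repressor gene, had 1.62 and -0.55. Of 15 measured clock genes 6 were at 1 or more in the RORγ mean and 0 at -1 or less (median 0.86), and with ENZ 1 was at 1 or more and 1 at -1 or less (median 0.29). Of all 8175 genes 5.15% were at 1 or more in the RORγ mean and 1.6% with ENZ.

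Of 15 measured NRF2 and oxidative stress genes, 5 were in the RORγ class and higher and 1 was shared and higher. Over all 8175 genes the shares were 2.76% and 0.391%. HMOX1, haem oxygenase, the member with the largest difference, was outside the class by its ENZ change. It was at 10.6 and 487 RPKM with SR2211, at 6.51 and 49.2 FPKM with XY011, and at 17.5 and 10.6 FPKM with ENZ, where it was lower (-0.68). The cystine transporter gene SLC7A11 was at 13.1 and 74.1, at 10.9 and 26.7, and at 23.3 and 23.5. The SR2211 change was the larger of the RORγ compounds in both, and in MT1X, a metallothionein gene (2.95, 1.81 and 0.00). Over the NRF2 and oxidative stress list 8 were at 1 or more in the RORγ mean (median 1.07) and 1 with ENZ (median 0.01). Other RORγ-class higher genes, outside that list, included VEGFA, the vascular growth factor gene, with changes of 2.86, 2.59 and 0.35, ERN1, the endoplasmic reticulum stress sensor IRE1 gene, with 2.28, 2.47 and 0.41, and MAP1LC3B, an autophagosome protein gene, with 2.39, 1.95 and 0.26.

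The remaining genes of highest rank were ENC1, an actin-binding protein gene (2.52, 2.60 and -0.26), FAM43A (2.44, 2.99 and -0.08), MKNK2, which encodes a kinase of the translation factor eIF4E (1.85, 2.81 and 0.04), and S100P, a calcium-binding protein gene. S100P was at 1.43 and 19.0 RPKM with SR2211, at 0.940 and 19.0 FPKM with XY011, and at 38.5 and 32.9 FPKM with ENZ. Its ENZ vehicle stood above both libraries treated with RORγ compounds, so the classes compare changes from different starting levels there. Likewise the MKNK2 libraries of the ENZ pair, 347.5 and 356 FPKM, were at the level of the XY011-treated library, 354.

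Decreases in the RORγ class included RNA-binding proteins. HNRNPM, a splicing factor gene, was at 151 and 38.4 RPKM with SR2211, at 86.5 and 5.42 FPKM with XY011, and at 327 and 232 FPKM with ENZ. SRSF2, an SR splicing factor gene, was at 93.4 and 28.2, at 129 and 22.3, and at 232 and 193. The XY011-treated library was the lowest of the 6 in both genes, and the ENZ changes were -0.49 and -0.26. Of 31 HNRNP and SR genes 14 were at -1 or less in the RORγ mean (median -0.92), 10 of them in the RORγ class, and 0 with ENZ (median -0.29). The shares of all 8175 genes were 8.87%, 5.31% and 2.37%. SFPQ (-1.98 and -0.21) and HNRNPD (-1.75 and 0.01) were other members, while SRSF4 (0.25 and -0.06) and HNRNPC (0.19 and -0.19) were not lower in the RORγ mean.

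DNA replication genes had the most uniform decrease of the lists. All 47 measured members had a negative RORγ mean, 37 at -1 or less (median -1.53), while with ENZ 39 were negative and 2 at -1 or less (median -0.50). Of these, 14 were in the RORγ class and 2 were shared. Another 20 were past 1 in the RORγ mean with ENZ changes of 0.5 to 1 in size in the same direction. MCM6, a subunit gene of the replicative helicase, was at 33.4 and 9.56 RPKM with SR2211, at 31.9 and 6.65 FPKM with XY011, and at 23.9 and 17.0 FPKM with ENZ. POLA2, a subunit gene of DNA polymerase α, was at 21.9 and 6.38, at 31.6 and 3.95, and at 20.5 and 15.9. Each library treated with a RORγ compound was below all 3 vehicles and below the ENZ library for both genes. CHAF1B, a histone chaperone gene, had -1.46 and 0.38, whereas LIG1, the replicative ligase gene, had -1.22 and -1.31 and was shared.

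E2F factors control many replication genes. Their sites (TTTGGCGC, TTTCCCGC or TTTCGCGC, either strand) were in 32 of 358 RORγ-class lower genes with a promoter (8.94%), against 4 of 188 RORγ-class higher genes (2.13%), 3 of 42 ENZ-class higher genes (7.14%), 362 of the 6820 (5.31%) and 2.74% of all 35116 promoters. Stretches of 120 bases of 4 members follow, MCM6, POLA1 and POLA2 of the replication list and E2F1, which encodes a factor of this kind. Capitals mark the matches within each stretch. MCM6 has 4 matches in its promoter, of which the 2 in its stretch overlap.
MCM6 (chr2:135876532-135876651, reverse strand): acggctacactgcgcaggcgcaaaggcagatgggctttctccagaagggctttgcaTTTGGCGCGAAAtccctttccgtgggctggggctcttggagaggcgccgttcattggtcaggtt
POLA1 (chrX:24693725-24693844, forward strand): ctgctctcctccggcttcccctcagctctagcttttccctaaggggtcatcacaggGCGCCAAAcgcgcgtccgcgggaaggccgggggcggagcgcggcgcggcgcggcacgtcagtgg
POLA2 (chr11:65261842-65261961, forward strand): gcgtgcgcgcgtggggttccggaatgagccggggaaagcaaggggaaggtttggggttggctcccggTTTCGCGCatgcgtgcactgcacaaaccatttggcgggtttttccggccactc
E2F1 (chr20:33686386-33686505, reverse strand): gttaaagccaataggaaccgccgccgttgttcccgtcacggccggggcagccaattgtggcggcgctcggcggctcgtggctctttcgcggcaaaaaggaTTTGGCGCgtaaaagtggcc

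E2F1 was at 37.5 and 15.6 RPKM with SR2211, at 28.2 and 5.94 FPKM with XY011, and at 31.4 and 24.5 FPKM with ENZ, and POLA1 at 15.3 and 6.09, at 15.0 and 2.23, and at 6.58 and 4.46. Of 18 measured G1 cyclin and E2F genes 9 were at -1 or less and 1 at 1 or more in the RORγ mean (median -0.94), and 1 and 0 with ENZ (median -0.22). For all 8175 genes the shares were 8.87% and 5.15%, and 2.37% and 1.6% with ENZ. In the RORγ mean mitosis genes did less: 3 of 35 were at -1 or less (median -0.52), near the 8.87% of all genes. With ENZ 0 were (median -0.31). The RORγ mean joins unlike values here, as the list's median was -0.91 with SR2211 and -0.26 with XY011. Outside that list, ESCO2, which joins sister chromatids, had -1.36 with SR2211, -2.25 with XY011 and 0.39 with ENZ. SKA3, a kinetochore protein gene also outside it, had -1.43, -2.67 and -0.09.

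The RORγ class held 2 lower and 1 higher of 26 measured lineage and cofactor genes. Among all 8175 genes the shares were 5.31% and 2.76%. HOXB13, a prostate homeobox gene, was at 136 and 47.9 RPKM with SR2211, at 109 and 36.6 FPKM with XY011, and at 131 and 164 FPKM with ENZ. The pioneer factor gene FOXA1 had -1.15 in the RORγ mean (-0.84 with SR2211 and -1.47 with XY011) and -0.04 with ENZ. Its class, and that of HOXB13, stand beside 3 of the 26 genes at 1 or more and 4 at -1 or less in the RORγ mean. With ENZ the counts were 1 and 2. The medians of -0.11 and -0.01 were close to those of all genes. Those at 1 or more in the RORγ mean were ELF3 (2.92, and 1.08 with ENZ), GATA2 (1.43 and 0.92) and CDH1 (1.18 and 0.08). Among 26 cytosolic chaperones 12 were at -1 or less in the RORγ mean (median -0.86) and 1 with ENZ (median -0.34). The shares over all genes were 8.87% and 2.37%. HSPA1B, a heat shock HSP70 gene, was at 46.8 and 10.5, at 64.3 and 10.3, and at 23.2 and 16.6. HSPA1B has a near-identical copy, so its value is uncertain. Other lower genes of high rank were C14orf142, PDSS1 (coenzyme Q synthesis), TENC1 (a tensin), SLC10A7, ZNF789, RGS2 (a regulator of G protein signalling), YAE1D1 and GTF2H2B, which has close copies. Their RORγ mean changes ran from -2.35 to -1.58 and their ENZ changes from -0.19 to 0.37.

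The ENZ class was small, and 2 of its 47 lower genes and 0 of its 51 higher genes were on a list other than the one chosen after values were seen. On the same lists were 7 of the 32 shared higher and 30 of the 86 shared lower genes. So were 39 of the 226 higher and 61 of the 434 lower RORγ-class genes. The share of all 8175 genes on a list was not counted, and the lists were chosen with earlier results of these data known. These counts are therefore no evidence on the function of the genes in any class. TCF7L2, a transcription factor gene of the Wnt pathway, was at 5.93 and 5.24 RPKM with SR2211, at 6.68 and 4.79 FPKM with XY011, and at 4.98 and 26.2 FPKM with ENZ. SNHG1, a noncoding gene whose introns hold small nucleolar RNAs, was at 69.3 and 66.8, at 68.0 and 61.9, and at 113 and 523. GPN2, a GTPase gene, was at 13.2 and 11.6, at 14.3 and 10.8, and at 27.7 and 109. In each the ENZ-treated library stood above the other 5, and the RORγ compounds had changes between -0.41 and -0.05.

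SNHG12, another host of small nucleolar RNAs, had changes of -0.24, 0.47 and 1.91, and SCAPER, which encodes a protein of the endoplasmic reticulum that binds cyclin A, 0.46, 0.47 and 2.01. Others were STX17, a syntaxin of autophagosomes (0.13, -0.33 and 1.51), SH3BP1 (-0.49, 0.25 and 1.43), NMT1, a protein myristoylation enzyme (-0.45, -0.26 and 1.19), GSTA4, a glutathione transferase gene (0.07, -0.21 and 1.38), and WASH5P, a pseudogene with close copies (-0.08, -0.16 and 1.57). A list of 13 snoRNA host genes, chosen after values were seen, had 2 at 1 or more and 1 at -1 or less with ENZ (median 0.13) and 2 and 0 in the RORγ mean (median 0.26). It holds SNHG8 (0.26 and 0.51) and ZFAS1 (1.04 and 0.25), so its members differed in direction and size.

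Lower with ENZ were genes of varied function. COG3, a Golgi tethering complex gene, was at 12.3 and 15.1 RPKM with SR2211, at 9.50 and 13.5 FPKM with XY011, and at 42.5 and 10.1 FPKM with ENZ. CNOT2, a subunit gene of the mRNA deadenylase complex, was at 20.3 and 24.9, at 20.6 and 25.2, and at 121 and 42.8. AP3M2, an adaptor protein gene, was at 8.91 and 9.25, at 9.78 and 6.85, and at 52.2 and 13.1. In these genes the ENZ vehicle was the highest of the 6 libraries, and the ENZ-treated libraries of CNOT2 and AP3M2 were still above those of the other pairs. RC3H1, which encodes the mRNA decay factor roquin, had changes of -0.37, 0.03 and -1.97, PTBP3, a splicing regulator gene, 0.04, 0.23 and -1.64, EIF4ENIF1, whose product carries eIF4E, -0.09, 0.37 and -1.69, and TAOK1, a kinase gene, -0.06, 0.38 and -1.18. NDRG1, a stress gene that androgens and hypoxia induce, was at 56.9 and 37.1, at 52.7 and 50.9, and at 290.2 and 84.5. MLPH, which encodes the vesicle transport protein melanophilin, had -0.48 in the RORγ mean and -1.43 with ENZ.

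The level of the ENZ vehicle moved with these classes. Taken against the mean of the other vehicles on the log2 scale, less the median gene's offset of 0.55, it was a median 0.37 higher in the ENZ-class lower genes and -0.55 in the ENZ-class higher genes. It was 1 or more higher for 13 of the 47 lower genes (27.7%), against 14.0% of all genes compared, and 1 or more lower for 10 of the 51 higher genes (19.6%), against 9.79%. In the RORγ class the medians were 0.27 for higher and -0.30 for lower genes, and 0.36 and -0.30 for shared ones. The ENZ vehicle enters both this offset and the ENZ change, and the other vehicles enter the RORγ mean, so the quantities are not independent. Its part in the classes was not tested, and among genes with an offset under 1 in size 38 ENZ-class higher and 31 lower genes remained.

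**Figure D4:**
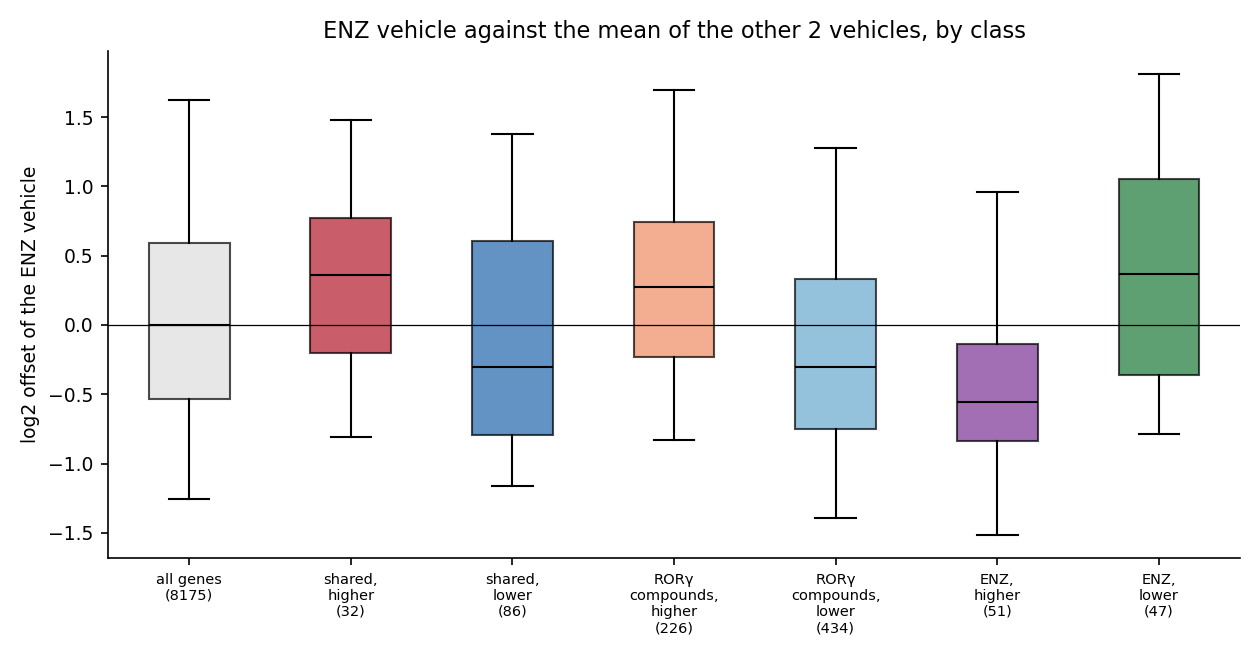
The log2 level of the ENZ vehicle against the mean of the SR2211 and XY011 vehicles, less the median gene's offset, for all 8175 genes and for each class, with numbers of genes in brackets. Boxes span the quartiles around the median line and whiskers the 5th to 95th percentile, and the ENZ-class medians lie at -0.55 for higher and 0.37 for lower genes.

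Genes past 1 in opposite directions were 4. GAS5, a noncoding host gene of small nucleolar RNAs, was at 105 and 273 RPKM with SR2211, at 105 and 429 FPKM with XY011, and at 915 and 310 FPKM with ENZ. BACH1, a repressor gene of haem and antioxidant genes, was at 4.16 and 8.09, at 2.68 and 8.05, and at 6.38 and 2.09. TMEM2, a hyaluronidase gene of the cell surface, was at 4.92 and 23.4, at 4.4 and 7.44, and at 18.3 and 8.02. The ENZ vehicle was the highest of the 3 vehicles in each. OSR2, a zinc finger transcription factor gene, was at 12.02 and 9.38, at 7.32 and 1.51, and at 13.3 and 33.7, the 1 gene lower in the RORγ mean (-1.03) and higher with ENZ (1.28), and with SR2211 its change was -0.33.

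The remaining lists had medians between -0.74 and 0.45 in the RORγ mean. Cytosolic ribosomal proteins were the tightest: 48 of 49 had a positive RORγ mean and 0 passed 1 (median 0.29), and with ENZ 29 were positive (median 0.03). The respiratory chain had medians of -0.11 and -0.08 over 41 genes, the housekeeping list -0.29 and -0.20 over 25, cholesterol synthesis -0.17 and -0.32 over 22, and the BCL2 family 0.17 and -0.13 over 16. Ribosome biogenesis had the lowest of these medians, with 10 of 28 at -1 or less in the RORγ mean (median -0.74) and 1 with ENZ (median -0.43). Proteasome genes (33) had medians of -0.51 and -0.22, hypoxia and glycolysis genes (26) -0.51 and -0.34, lysosome and autophagy genes (31) 0.35 and 0.03, and polyamine genes (12) -0.61 and -0.01, where SRM, spermidine synthase, had -1.42 and -0.04. The androgen-repressed list (9) had medians of -0.24 and -0.26, the endoplasmic reticulum folding list (25) -0.34 and -0.24, the interferon list (15) 0.45 and 0.05, the tricarboxylic acid and branched-chain list (37) -0.15 and 0.06, the epithelial cytoskeleton list (16) -0.30 and -0.24, and the steroid and drug metabolism list (5) -0.30 and 0.28.

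**Figure D5:**
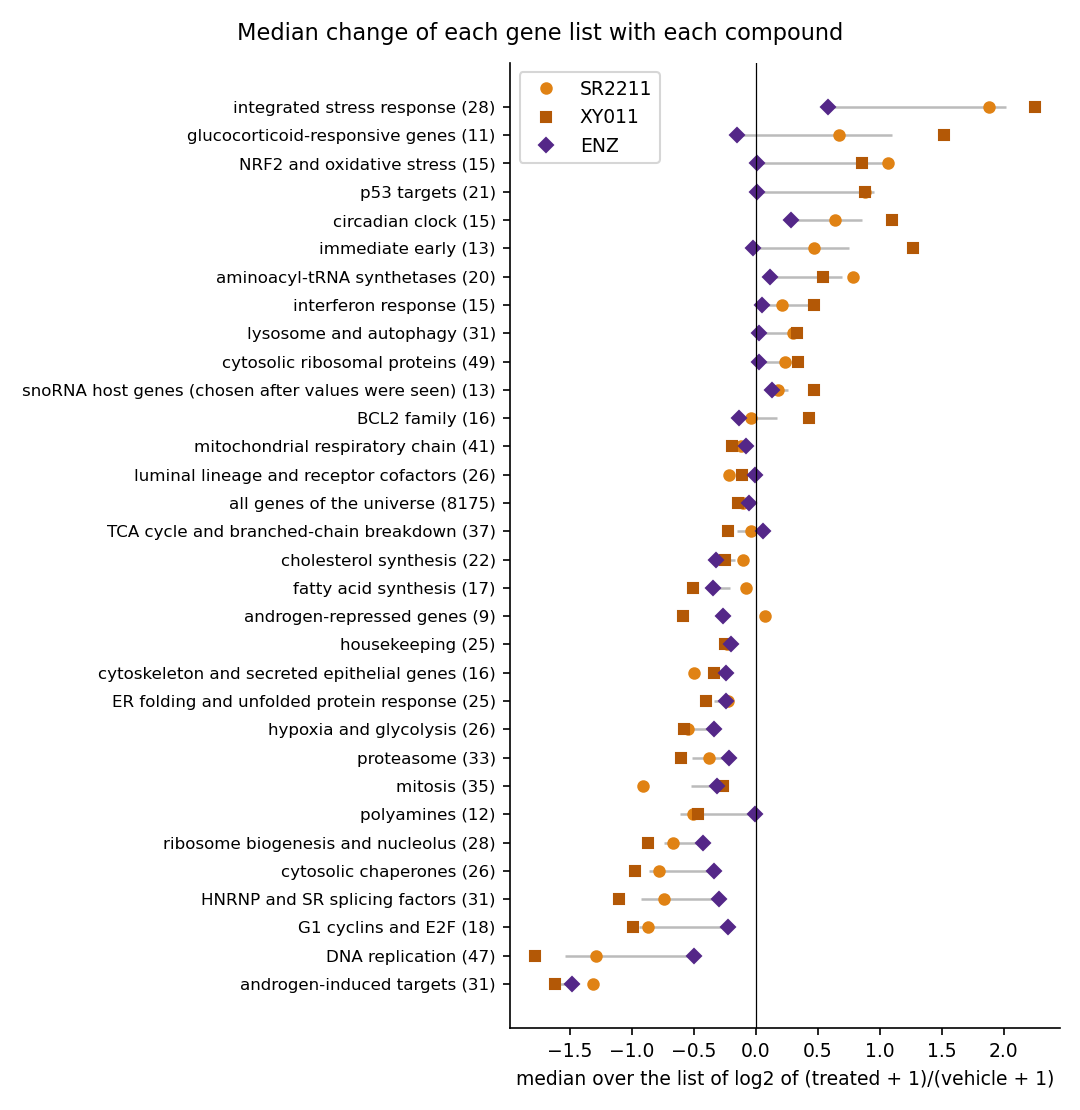
The median change over each gene list with SR2211, XY011 and ENZ (log2 of (treated + 1)/(vehicle + 1)), with the number of measured genes in brackets and grey lines from the median of the RORγ mean to that of ENZ, for lists of 8 or more genes. The androgen-induced list has the shortest gap among lists far from 0 (-1.65 and -1.48), and the integrated stress response (2.02 and 0.59) and DNA replication (-1.53 and -0.50) lists have wide ones.

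The borders of the classes were crowded. For a shared increase FBXL16 (smallest change 1.01) was just inside and SEL1L3 (0.99) just outside, and for a shared decrease RAB3B (1.0) and TMEM47 (0.99). In the RORγ class GHITM, at a RORγ mean of 1.01, was in and TUFT1, at 0.999, was out, while PARPBP, at -1.0, was in and KLK4 was out. TESK2, with an ENZ change of 0.50, and MCM7, with -0.50, narrowly missed the RORγ class, and ACSL1 (0.497) and DERL3 (-0.4999) entered it. For ENZ, DNAJC13 (1.01) and MSMP (-1.0) were in and SH2B1 (0.998) and TRIM59 (-0.999) out. Both RORγ compounds were past 1 on their own for 127 of the 226 higher and 229 of the 434 lower RORγ-class genes. Both were under 0.5 for 27 of the 51 higher and 30 of the 47 lower ENZ-class genes.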

How the data were processed

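RNA-seq values of 6 libraries in 3 pairs were used. The authors deposited RPKM for the SR2211 pair and FPKM for the XY011 and ENZ pairs, with Entrez identifiers in the RORγ compound tables and gene names alone in those of ENZ. Per the submitters' processing notes, reads were handled with Bowtie, BWA, Cufflinks and Cuffdiff on builds hg19 and GRCh37. Their versions, the table each made and strand handling are, as far as these libraries go, not given in the sources used here. Reads of overlapping antisense genes cannot be told apart. A stand-in of 0.01 (SR2211 tables) or 0.001 (XY011 tables) takes the place of no reads, and ENZ tables use 0. No line of the ENZ vehicle was at 0 and 742 treated lines were, so genes first seen with ENZ are missing.

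Tables were joined by identifier (15713 genes) and, for ENZ, by symbol: 14152 lines by the symbol in the other tables, 2589 by current symbol and 302 by an older one. Left out were 22 ENZ lines with symbols turned into dates, 10 ambiguous ones and 5663 unmatched ones. A total of 117 lines that met in 1 gene were summed. Values in different pairs were processed apart, so levels across pairs are set side by side without a test.

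Changes used a pseudocount of 1 and a floor of 5, which understate changes of low genes. limma 3.58.1 in R 4.3.3 fitted log2(value + 1) with 3 pair terms, 1 coefficient for both RORγ compounds and 1 for ENZ. Its p-values measure the spread between SR2211 and XY011 alone, with 4.32 prior degrees of freedom. It was checked on simulated data. Named genes were taken by rank within class and by the largest and smallest differences within each list, and genes with a printed promoter or outside those ranks (CDKN2C and VGLL4 among them) were chosen after their values were seen. The members and lists were chosen with earlier results of these data known. Some items are not reported here.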

Additional observations from a re-analysis of the deposited data

Results flagged for a closer look

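In 4 genes the libraries treated with both RORγ compounds and the ENZ library moved in opposite directions from their own vehicles. The difference between the RORγ mean and the ENZ change was 3.26 for GAS5 (SE 0.38, limma adjusted p = 0.164), 2.44 for TMEM2 (SE 0.60, limma adjusted p = 0.224), 2.31 for BACH1 (SE 0.34, limma adjusted p = 0.214) and -2.31 for OSR2 (SE 0.60, limma adjusted p = 0.226). None of the 4 passed the test of the difference. The ENZ vehicle stood above the other vehicles, less the median gene's offset, by 2.56 for GAS5 and 1.22 for TMEM2, and by 0.21 for BACH1, while for OSR2 the offset was -0.10. The part of that level in the differences was not tested.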

How the results depend on the processing

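Depth is known for 1 of the 3 pairs, and each group is 1 library, so no replicate could be left out. Each treated library was compared with its own vehicle in every setting. Counts are given in the order shared higher, shared lower, RORγ class higher, RORγ class lower, ENZ class higher and ENZ class lower, where the main counts were 32, 86, 226, 434, 51 and 47. Past 1.5 in place of 1 they were 5, 28, 69, 90, 9 and 10. With 0.3 in place of 0.5 the last 4 were 148, 262, 28 and 31. Requiring both RORγ compounds to pass gave 127, 229, 27 and 30. XY011 alone in place of the mean gave 51 shared higher, 365 RORγ class higher and 714 RORγ class lower. A floor of 1 gave 57 shared higher and 123 and 97 in the ENZ class, no floor gave 57, 214 and 144, and a floor of 10 gave 24 and 25 in the ENZ class. Leaving out genes whose ENZ vehicle stood 1 or more from the others, an alternative chosen after seeing the data, left 31 ENZ class lower.

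Opposite genes with the RORγ mean higher (main 3) numbered 5 with a pseudocount of 0.1, a floor of 1 or no floor, and 1 with a floor of 10, past 1.5 or without the genes of an offset ENZ vehicle. Those with it lower (main 1) numbered 3 with a pseudocount of 0.1, 5 with a floor of 1 or none, 2 with XY011 alone, and 0 with a floor of 10, centring, quantile scaling, SR2211 alone or past 1.5. The limma calls (main 0 higher and 0 lower) were 2 and 1 at a floor of 1, 2 and 2 with no floor, and 201 and 110 after centring each pair, where the prior degrees of freedom went from 4.32 to 12.6. The cause was not tested. Pseudocounts of 0.5 and 0.1, a floor of 10, quantile scaling and eBayes with trend and robust gave 0 calls, with a lowest adjusted p between 0.0596 and 0.280.

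Centring kept 32 of the 32 shared higher, 71 of the 86 shared lower, 207 of the 226 and 300 of the 434 RORγ class genes, and 39 of the 51 and 36 of the 47 ENZ class genes. It raised the RORγ class higher count to 315 and lowered the RORγ class lower count to 335. For 251 named genes 2459 alternative values were computed, of which 2262 stayed within the main call, 112 moved and 85 were stronger. Counted apart from these labels, 70 values changed sign, most of them among the 2262.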
